A study of Mus musculus with 2 samples.

Results

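This account concerns 10 testis-type genes outside the Rhox homeobox cluster (Pnma5, Nxf3, Nxf2, Efhc2, Gm364, Fmr1nb, Scml2, Tex13b, Tsx and Tktl1) in mouse embryonic stem (ES) cells. They were selected on their signals on the very arrays described here, as testis-type genes with a higher signal in cells labelled as a knockout (KO) of Dnmt1. Their ratios are therefore a description, and no test is made of them. All probe sets annotated to 1 of these genes alone were taken, which gave 14 probe sets for 10 of the 18193 genes on the array with such a probe set.

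The study hybridised total RNA from a Dnmt1 KO ES cell culture and from the control of that KO, with 1 array for each, and was designed to provide a KO control for other work on ES cell differentiation. The labels give the genotype through the sample title alone. They give no allele, strain, sex, clone, passage or feeder layer, and no agent or treatment for either culture. With 1 array per group there is no spread between replicates, no p-value and no error on any ratio.

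Dnmt1 copies methylation at CpG dinucleotides onto the new DNA strand after replication, and many genes used in the testis carry methylated promoters in other cells. The X chromosome of mammals holds many genes expressed in spermatogonia, the mitotic cells from which sperm arise. The genes described here were selected as testis-type genes, and their expression in the testis was not measured. The group has no common biochemical function. It includes mRNA export factors, a Polycomb protein, a transketolase relative, an axoneme protein and several genes of little known role.

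Signals are MAS5 values on a linear scale. Each array has a floor, its median over all non-control probe sets, which was 74.2 on the KO array and 60.9 on the control array, and signals below it were raised to it before a ratio was taken. Over genes past both floors the median ratio as deposited was 1.34-fold towards the KO array (log2 0.43). This is the shift, and ratios are KO over control relative to it unless called as deposited. A gene at the floor on the control array has a lower bound, written "at least". The Dnmt1 signal was 262.1 on the KO array and 1949.1 on the control array, 9.99-fold lower, and the labels do not say which of its probe sets lies in the deleted part. The 12 ES cell markers examined, among them Pou5f1, Sox2 and Nanog, were all above the floor on both arrays.

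Of the 10 genes, 9 reached a ratio of 2-fold or more towards the KO array relative to the shift, and the exception was Nxf2. Among all 12226 genes past the floor of at least 1 array, 1.09% reached this ratio upwards and 0.532% downwards. As deposited, the same 9 genes passed 2-fold, against 4.92% of all genes. Because the choice of genes used this contrast, nothing is read from the difference between these shares. The median log2 ratio over the 10 genes was 1.93, with 6 of them at a lower bound, and that over all measured genes was -0.00. Those 6 passed the floor on the KO array alone, and a gene that passes only through its KO signal can hardly come out lower. In bulk RNA, more cells with a transcript and more transcript per cell cannot be told apart.

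**Figure D1:**
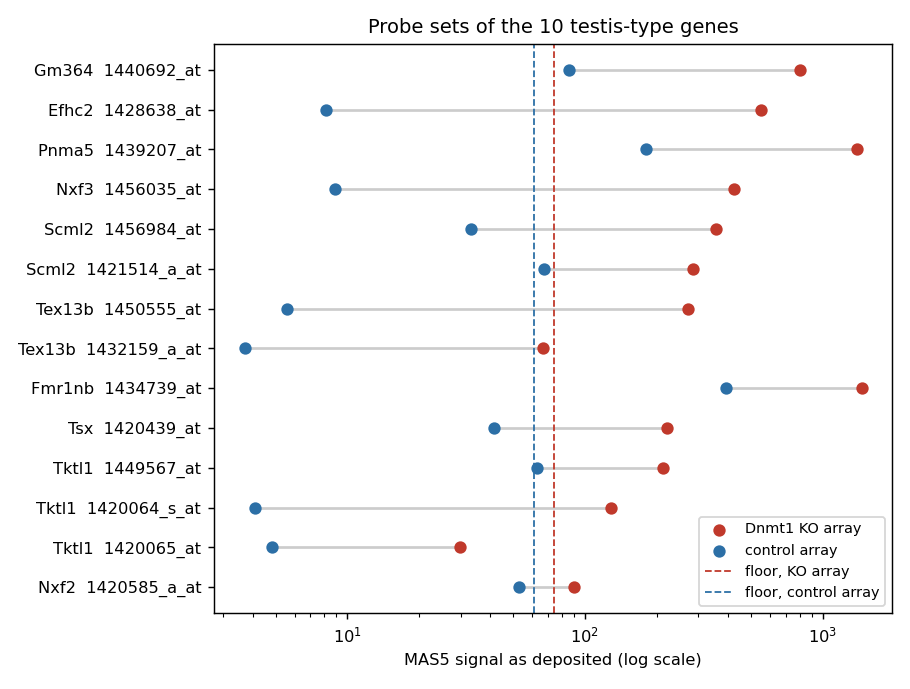
MAS5 signal as deposited (log axis) of the 14 probe sets of the 10 genes on the Dnmt1 KO array (red) and on the control array (blue), with the floor of each array as a dashed line of the same colour. Every probe set was brighter on the KO array, and 5 passed both floors, 7 the KO floor alone and 2 neither.

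The mRNA export relatives Nxf3 and Nxf2 differed from each other. Both belong to the family of Nxf1, the main carrier of mRNA through the nuclear pore. Nxf3 had a signal of 425.0 on the KO array and 8.9 on the control array, at least 5.20-fold higher. Nxf2 had 90.2 on the KO array, just above the floor, and 53.0 on the control array, just below it. It was at least 1.10-fold higher, a bound set by raising its control signal to the floor. With a floor at the 25th percentile of each array, which both signals passed, its log2 ratio was 0.36, and 0.38 with no floor. Elsewhere on the arrays, probe sets of the same gene above both floors had an SD of 0.24 (log2 scale, 4704 genes). That SD covers neither culture nor array differences. Nxf7, another X-linked relative, had 78.5 on the KO array and 25 on the control array, a bound of -0.06 on the log2 scale. Nxf1 had 693.3 on the KO array and 536.1 on the control array, a log2 ratio of -0.05.

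RefSeq annotates 2 start sites for Nxf2. The window of the upstream one (250 bases before to 50 after the start) is shown because it carried a run of the E-box CACGTG, in capitals. It lies at chrX:134964705-134965004 of GRCm38.p6 on the minus strand:

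Nxf2: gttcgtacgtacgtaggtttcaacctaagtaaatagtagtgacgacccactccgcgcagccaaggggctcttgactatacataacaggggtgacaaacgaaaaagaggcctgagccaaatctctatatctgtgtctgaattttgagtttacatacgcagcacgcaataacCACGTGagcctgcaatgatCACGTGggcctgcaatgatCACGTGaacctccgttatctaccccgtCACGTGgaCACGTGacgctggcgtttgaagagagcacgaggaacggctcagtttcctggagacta

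The E-box occurred 5 times, beginning 80, 61, 42, 15 and 7 bases before the start site. The copies at 80, 61 and 42 bases lie in a repeat with nearly the same letters between them, so they are not separate occurrences. Of the 32851 RefSeq windows of this length, 5 held 5 or more copies (0.0152%) and 7.15% held at least 1. The motif was picked after the window had been read. The cutoff of 5 was the count in this window, which is itself among those counted, so the share is no measure of rarity.

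Scml2 is a Polycomb protein of the male germline that is known in mouse to bind Usp7 and Polycomb repressive complex 1. Its brighter probe set had 357.1 on the KO array and 33.1 on the control array, at least 4.37-fold higher. The other had 285.9 on the KO array and 67.0 on the control array, 3.18-fold higher, so both of its probe sets passed 2-fold. Of 17 measured genes of Polycomb complex 1 and Usp7, none was 2-fold different relative to the shift, and Bmi1 and Phc3 were 2-fold higher as deposited. Their median log2 ratio was 0.14. Bmi1, a core ring finger subunit, had 0.91 with 156.9 on the KO array and 62.1 on the control array. Phc3, a Polyhomeotic subunit, had at least 0.85, Phc2 0.54 and Pcgf2 0.54. Usp7 had 0.20 from its brightest probe set, and its 7 probe sets averaged -0.13 ± 0.40 (SD).

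Tktl1 is related to the transketolase Tkt, an enzyme of the non-oxidative branch of the pentose phosphate pathway. Its brightest probe set had 212.1 on the KO array and 62.9 on the control array, 2.51-fold higher, with the control signal only just above the floor. A further probe set had 128.7 on the KO array and 4.1 on the control array, at least 1.57-fold higher. The last had 29.7 on the KO array and 4.8 on the control array, below the floor of both. The name of the probe set at 128.7 carries the _s_at suffix, by which Affymetrix marks probes that can match related transcripts. Tkt itself had 5446.5 on the KO array and 4783.8 on the control array, a log2 ratio of -0.24 (mean -0.11 ± 0.18, SD over 2 probe sets above the floor). Of 7 measured pathway genes besides Tktl1, none was 2-fold different, and their median was 0.04. H6pd, the glucose-6-phosphate dehydrogenase of the endoplasmic reticulum, had 72.6 on the KO array and 106.0 on the control array, a log2 ratio of -0.94 or below. The lactonase Pgls had -0.55 and the isomerase Rpia 0.15. Tktl2, the other transketolase relative, was below the floor on both arrays (65.9 on the KO array and 7.2 on the control array).

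Efhc2 is an EF-hand domain protein of the doublet microtubules in cilia and flagella. It had 551.2 on the KO array and 8.1 on the control array, at least 6.74-fold higher, the highest of the 6 bounds. Of 23 other axoneme genes with a probe set, 17 did not reach either floor, and none of the 6 measured was 2-fold different (median log2 ratio -0.09). Cfap20 had -0.45 (744.7 on the KO array and 759.2 on the control array) and the radial spoke gene Rsph1 0.30. Hydin of the central pair had at least 0.26, Rsph9 at most -0.19, and Foxj1, the main activator of motile cilia genes, 68.2 on the KO array and 56.6 on the control array, below both floors.

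Pnma5 belongs to the paraneoplastic Ma antigen family, whose members derive from the gag gene of a retrotransposon. It had 1399.0 on the KO array and 181.0 on the control array, 5.76-fold higher, and stood well clear of the floor on both. Its measured relatives were not 2-fold different. Pnma2 had 296.3 on the KO array and 211.9 on the control array (log2 ratio 0.06), and Zcchc12 had 0.10. Zcchc18 had 116.0 on the KO array and 157.4 on the control array (-0.87), while Pnma1 and Pnma3 were below the floor on both. Gm364, a predicted gene with no role stated here, had 799.9 on the KO array and 85.8 on the control array, 6.94-fold higher, the highest of the 4 genes measured above the floor on both arrays.

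Fmr1nb lies beside Fmr1, the fragile X gene, and encodes a membrane protein known as a cancer-testis antigen in human. It was the only one of the 10 well above the floor on the control array besides Pnma5, with 1458.7 on the KO array and 393.8 on the control array, 2.76-fold higher. Fmr1 next to it had 1062.4 on the KO array and 868.0 on the control array, a log2 ratio of -0.13. Tex13b, a testis-expressed gene of little known function, had 271.7 on the KO array and 5.6 on the control array by its brighter probe set, at least 3.32-fold higher. Its other probe set had 66.6 on the KO array and 3.7 on the control array and stayed below both floors. The related Tex13a had 95.2 on the KO array and 67.2 on the control array, a log2 ratio of 0.08.

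Tsx lies in the X-inactivation centre, the region that controls silencing of an X chromosome through the RNA Xist. It had 221.6 on the KO array and 41.5 on the control array, at least 2.71-fold higher. Of 6 other measured genes of that region, none was 2-fold different and 5 lay below the shift, with a median log2 ratio of -0.26 (0.16 as deposited). Rlim, a ubiquitin ligase that activates Xist, lay just above the shift by its brightest probe set (0.05). Its 5 probe sets averaged -0.09 ± 0.23 (SD). Xist had 479.6 on the KO array and 406.7 on the control array (-0.19, or 0.24 as deposited). Jpx had -0.62 (mean -0.44 ± 0.25, SD over 2 probe sets) and Nap1l2 -0.45. Chic1 next to Tsx had -0.29 (mean -0.17 ± 0.27, SD over 3 probe sets) and Ftx -0.23. Tsix and Cdx4 were below the floor on both arrays.

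All 10 genes lie on the X chromosome, a property the rule did not name. Of the 133 genes at least 2-fold higher, 19 (14.3%) were X-linked, whereas 3.39% of the measured genes were, but 9 of those 19 are genes described here. With the 10 left out, 10 of 404 X-linked genes (2.48%) were called higher, against 113 of 11787 autosomal genes (0.959%). Of these 10, 4 were Rhox genes, namely Rhox5, Rhox6, Rhox9 and Rhox13, which are all the Rhox genes measured. Without them, 6 of 400 were higher (1.5%) and 5 lower (1.25%). Of the 404, 5 were called lower (1.24%), against 60 of the 11787 autosomal genes (0.509%). The X-linked share was thus the larger one in both directions. X-linked genes without the 10 had a median log2 ratio of -0.08, and 41.8% of them lay above the shift.

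The 6 others were a mixed group. Taf9b, a subunit of the basal transcription machinery, had 260.2 on the KO array and 59.7 on the control array, at least 3.18-fold higher. Ezhip, an inhibitor of Polycomb complex 2 active in gonads, had 239.9 on the KO array and 38.1 on the control array, at least 2.93-fold higher. Nr0b1, an orphan nuclear receptor of ES cells, was 2.82-fold higher and Ldoc1, another gag-derived gene, 2.44-fold. Plac1, a placental gene, was 2.04-fold higher and the heparan sulfate sulfotransferase Hs6st2 2.01-fold. Both of these sat close to the threshold.

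None of the measured genes beside the 10 reached 2-fold. Of all measured genes 1.09% were called higher, and 1.5% of X-linked genes without the 10 and the Rhox genes. At such shares few or no calls arise among so few genes, so nothing is read from their absence. The nearest 3 measured genes on each side of every member gave 60 genes, with log2 ratios from -0.62 to 0.98 and a median of -0.11. Of the 60, 17 lay above the shift, where 41.8% of all X-linked genes without the 10 did. The highest was 4930550L24Rik, the first measured gene after Gm364, with 160.9 on the KO array and 51.0 on the control array, at least 0.98. Rbmx, on the other side of Gm364, had -0.53. For the remaining genes the nearest measured neighbours were as follows. They are not always adjacent, as genes without a measured value were passed over. For example, 0 protein-coding genes lie between Efhc2 and Fundc1 but 10 between Pnma5 and F8a. Efhc2 lies between Maoa (-0.20) and Fundc1 (-0.36), Pnma5 between Zfp185 (0.28) and F8a (-0.04), and Nxf3 between Bex2 (-0.0022) and Bex4 (-0.27). Nxf2 lies between Armcx2 (-0.16) and Nxf7, Scml2 between Phka2 (-0.08) and Reps2 (-0.49), and Tktl1 between Irak1 (-0.09) and Flna (-0.32). Tex13b lies between Tsc22d3 (0.27) and Psmd10 (-0.11), Fmr1nb between Fmr1 and Ids (0.03), and Tsx between Chic1 and Xist.

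**Figure D2:**
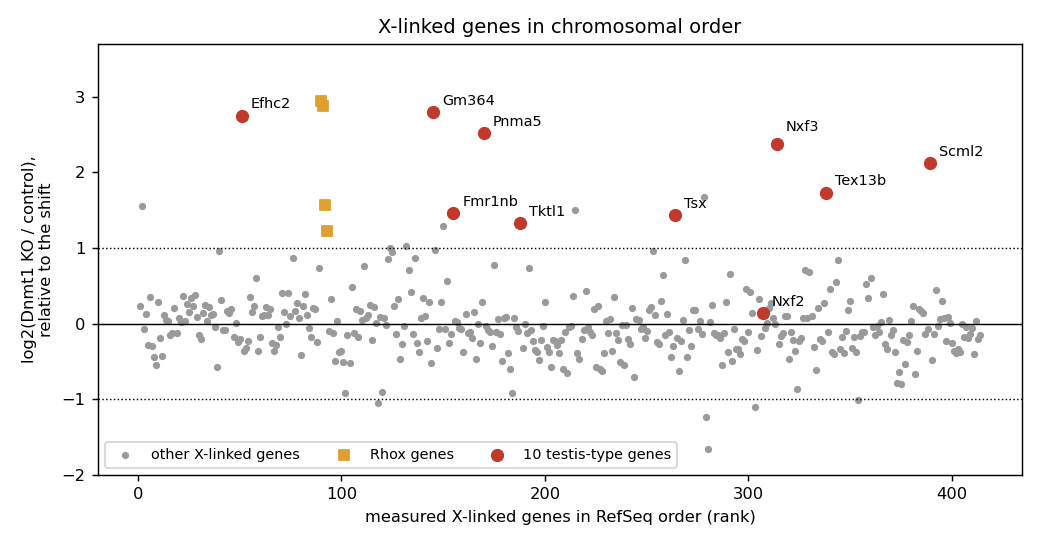
Log2 ratio of Dnmt1 KO over control relative to the shift (y axis) for every measured X-linked gene, placed by its rank along the chromosome (x axis), with the 10 testis-type genes in red, Rhox genes as yellow squares and other genes in grey. Dotted lines mark 2-fold. The red points are spread along the chromosome among neighbours between -0.62 and 0.98.

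A list of 64 other testis genes, chosen as X-linked, was set beside the 10. The 10 were selected for a higher signal on these arrays, and the list leaves them out. It was also drawn up with earlier results of these data known. A low count called in it is therefore no independent comparison. Of the 64, 27 had a probe set of their own and 15 did not reach either floor, including Akap4 of the sperm tail and Tsga8. Of the 12 measured, none was 2-fold higher or lower relative to the shift, and the median log2 ratio was -0.05. Usp26, a testis deubiquitinase, came closest with 158.1 on the KO array and 33.6 on the control array, at least 0.95, and it passed 2-fold as deposited. Dcaf12l1 had -0.92 (mean -0.65 ± 0.38, SD over 2 probe sets), Cypt3 -0.78 and Taf7l, a germ cell form of a transcription factor subunit, 0.46. The germline antigen gene Mageb16 was bright on both arrays, with 1542.1 on the KO array and 1238.9 on the control array. In 6 of the 12, the gene was above the floor on the KO array alone. One listed gene, Mageb3, is placed on chromosome 2 by RefSeq and was below both floors. The count for this list depended on the floor, as 4 genes were 2-fold higher with the 25th percentile floor (median log2 ratio 0.50, against 2.28% of all genes called) and 6 with no floor (5.11% of all genes).

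Relatives and partner genes were counted in the same way, with the floor used here. Of 13 measured paralogs of the 10 genes, none was 2-fold different, and the median was 0.03. That count depended on the floor. With the 25th percentile floor 3 paralogs were 2-fold higher (2.28% of all genes called), and with no floor 5 were (5.11% of all genes). In the axoneme list 4 genes were 2-fold higher with no floor. L3mbtl2, a malignant brain tumour domain protein related to Scml2, had 0.47, and Sfmbt1 -0.29 (mean 0.03 ± 0.34, SD over 4 probe sets). Among 22 measured mRNA export genes, 1 was at least 2-fold higher and none lower, with a median of 0.03. That gene was Mcm3ap, the scaffold of the TREX-2 export complex, with 1243.4 on the KO array and 425.6 on the control array, 2.18-fold. Nxt2, a small partner of the Nxf proteins, had 223.5 on the KO array and 92.6 on the control array, a log2 ratio of 0.85, and passed 2-fold as deposited. Ddx39a had -0.46 (mean -0.66 ± 0.45, SD over 5 probe sets) and the export adaptor Fyttd1 0.39 (mean 0.06 ± 0.31, SD over 4). Over these 7 lists together, 78 genes were measured, of which Mcm3ap alone was 2-fold higher. Among all measured genes the share called higher was 1.09%. The count in the lists was near that share, and each list alone is smaller still. It is therefore no result about these genes.

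**Figure D3:**
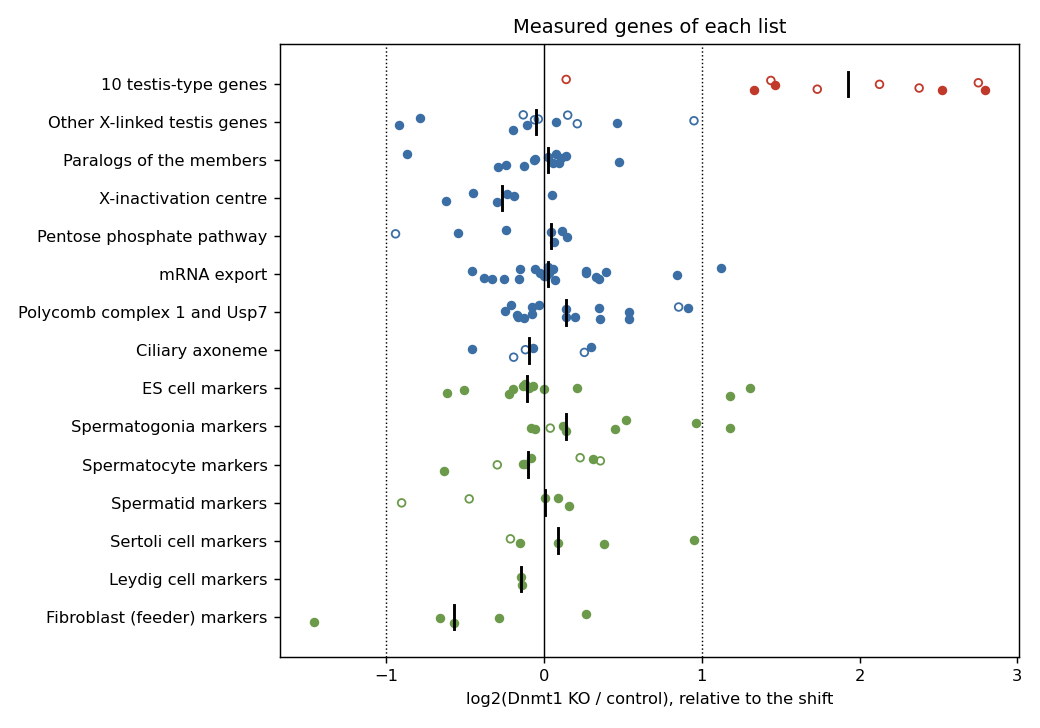
Log2 ratio of Dnmt1 KO over control relative to the shift (x axis) for the measured genes of each list (rows), with the 10 testis-type genes in red at the top, the 7 gene lists in blue and the 7 lists of cell type markers in green. Filled points were above the floor on both arrays, open points on 1 of them, and black bars are medians. The bar of the top row stands at 1.93 and those of the gene lists between -0.26 and 0.14.

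Markers of testis cells were set beside these values, to see whether other cell types moved with them. Summed signals are as deposited, with neither the floor applied nor the 1.34-fold shift taken out. Ratios and medians are relative to the shift. The spermatogonial list had a summed signal of 2992.5 on the KO array and 1610.1 on the control array over 10 genes, and 9 were above the floor on the KO array. Stra8, induced at entry to meiosis, was 2.27-fold higher (213.7 on the KO array and 70.2 on the control array). The receptor Kit had a log2 ratio of 0.96 (mean 0.77 ± 0.27, SD over 2 probe sets), Uchl1 0.52 and Id4 0.45, and Gfra1 was below both floors. The median of the list was 0.14.

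Spermatocyte markers summed to 1506.8 on the KO array and 1140.4 on the control array over 12 genes, with none 2-fold different. The median log2 ratio of the 8 measured was -0.10. Sycp3 had -0.63 and Ldhc at least 0.36. Sycp1 had at most -0.30 and Majin 0.31, while Spo11, Piwil1, Pgk2 and Meiob were below both floors. Spermatid markers summed to 659.5 on the KO array and 592.4 on the control array over 13 genes. Of these, 8 were below both floors, including the transition proteins Tnp1 and Tnp2, and the protamine Prm2 had 92.3 on the KO array and 68.3 on the control array. Oaz3 had at most -0.90, Prm1 at most -0.47, Tssk1 0.16 and Acr 0.09. The median of the 5 measured spermatid markers was 0.01.

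Sertoli cell markers summed to 1117.6 on the KO array and 623.8 on the control array over 9 genes. Aard was the brightest, with 573.5 on the KO array and 220.8 on the control array (log2 ratio 0.95), and Dmrt1 had 0.38, Wt1 at most -0.21 and Inha -0.15. The median of the 5 measured Sertoli cell markers was 0.09. The defining genes Amh and Sox9 were below both floors, with Amh at 10.8 on the KO array and 10.1 on the control array. Of 5 Leydig cell markers, Star (-0.15) and Cyp11a1 (-0.14) were measured and Cyp17a1 was below both floors, and the list summed to 429.5 on the KO array and 358.4 on the control array. Feeder fibroblast markers summed to 1881.2 on the KO array and 2040.1 on the control array over 12 genes, of which Tagln (-1.46) was 2-fold lower. Col1a1 had -0.66, Mmp2 -0.57 and Col1a2 -0.28, while Thy1 had 0.27 with 549.8 on the KO array and 340.0 on the control array. The median of the 5 measured was -0.57.

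ES cell markers summed to 44122.7 on the KO array and 34478.0 on the control array over 12 genes, with a median log2 ratio of -0.11. Nanog was 2.47-fold higher (1965.5 on the KO array and 592.5 on the control array) and Esrrb 2.26-fold (mean log2 ratio 0.84 ± 0.40, SD over 3 probe sets), while Utf1 had -0.62 and Fgf4 -0.51. No marker of any list was listed at exactly 0. The part of any of these cell states in the values of the 10 genes was not tested.

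Promoter windows from RefSeq, on GRCm38.p6, were found for 9 of the 10 genes, 10 windows in all. They held 1 to 20 CpG dinucleotides, the sites that Dnmt1 maintains, with a median of 11.5. The median over all 32851 windows was 7, over X-linked windows without the 10 genes also 7, and over the windows of all measured genes 20. The members did not share a single promoter type. Windows of Pnma5, Tsx and Efhc2 had 1, 3 and 4 CpG, those of Fmr1nb and Gm364 9 and 10, those of Scml2, Tex13b and Tktl1 13 each, and those of Nxf2 17 and 20. Pnma5 with 1 CpG was 5.76-fold higher and Gm364 with 10 was 6.94-fold higher. No methylation was measured in this study.

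The windows of Pnma5, Gm364 and Tktl1 are shown with every CpG in capitals, to set a CpG-poor window beside intermediate ones. They lie at chrX:73037054-73037353 on the minus strand, chrX:57408899-57409198 on the plus strand and chrX:74177009-74177308 on the plus strand.

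Pnma5: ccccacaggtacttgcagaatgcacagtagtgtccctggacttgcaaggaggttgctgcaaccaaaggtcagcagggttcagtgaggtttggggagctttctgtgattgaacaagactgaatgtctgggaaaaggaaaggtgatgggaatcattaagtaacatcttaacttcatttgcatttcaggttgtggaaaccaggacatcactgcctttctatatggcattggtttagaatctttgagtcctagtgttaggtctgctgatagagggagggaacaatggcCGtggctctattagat

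Gm364: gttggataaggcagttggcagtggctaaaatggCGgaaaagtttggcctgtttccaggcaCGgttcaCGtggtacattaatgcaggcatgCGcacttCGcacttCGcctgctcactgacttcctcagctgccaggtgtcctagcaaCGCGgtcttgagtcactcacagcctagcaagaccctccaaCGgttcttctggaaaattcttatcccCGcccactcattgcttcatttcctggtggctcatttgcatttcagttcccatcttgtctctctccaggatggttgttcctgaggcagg

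Tktl1: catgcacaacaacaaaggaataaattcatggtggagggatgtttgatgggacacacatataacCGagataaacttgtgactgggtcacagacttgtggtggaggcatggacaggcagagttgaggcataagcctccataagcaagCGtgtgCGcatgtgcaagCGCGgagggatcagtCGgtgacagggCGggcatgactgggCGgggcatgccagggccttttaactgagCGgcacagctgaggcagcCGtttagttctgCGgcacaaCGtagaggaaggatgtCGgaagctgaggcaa

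Of all windows, 5.43% had fewer CpG than that of Pnma5, 56.5% fewer than that of Gm364 and 62.1% fewer than that of Tktl1.

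**Figure D4:**
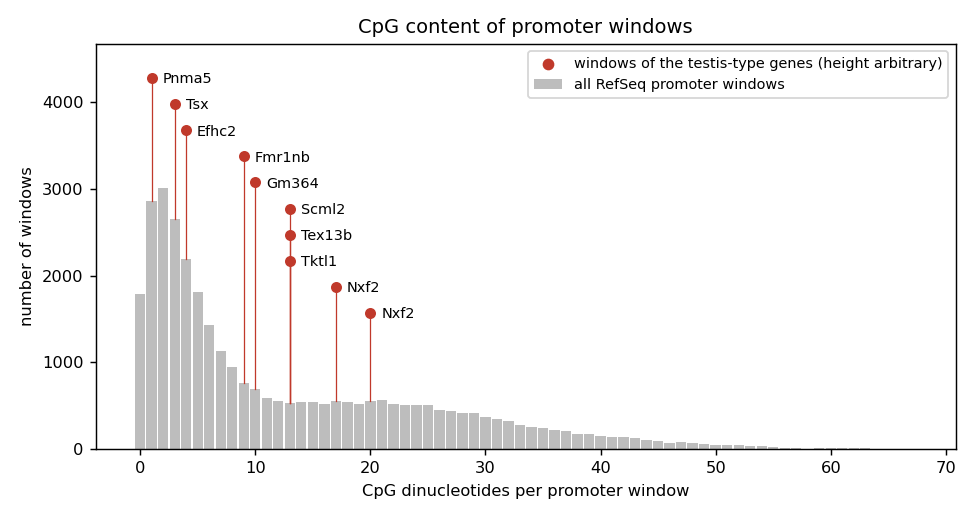
Number of RefSeq promoter windows (y axis, grey bars) by their count of CpG dinucleotides (x axis), with the windows of 9 of the testis-type genes marked in red at arbitrary height. The red marks run from 1 CpG for Pnma5 to 20 for Nxf2.

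In all, 4 short motifs were counted on both strands, and they were picked after the windows of these genes had been read. They were CACGTG and CTCGCGAG, which read the same on both strands, ATGGCGG and GCGGGA. The last pair can overlap each other. CACGTG was in the windows of Nxf2 and Gm364. ATGGCGG was in those of Gm364 and Scml2 and in 4.055% of all windows, and GCGGGA in the downstream Nxf2 window alone and in 19.98% of all windows. CTCGCGAG was in the windows of Fmr1nb and Tex13b, against 0.919% of all windows and 1.57% of X-linked windows without the 10 genes. These matches describe letters, not binding.

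The stretches around CTCGCGAG (capitals) are shown because 2 members shared it. They lie at chrX:68761760-68761799 on the plus strand for Fmr1nb and chrX:140813505-140813544 on the minus strand for Tex13b, with the motif beginning 63 and 95 bases before the start site.

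Fmr1nb: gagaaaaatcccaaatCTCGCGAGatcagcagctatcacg

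Tex13b: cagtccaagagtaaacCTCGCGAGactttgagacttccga

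Genes elsewhere on the arrays with the most similar pair of signals were sought, by distance from the members' median point on the floored log2 signals of both arrays. The control value of that point was the floor itself (60.9). Genes below the control floor were thus told apart by their KO signal alone, and the high ratios of the genes found follow from this choice. The nearest 5 were AF067061, Rec114, 1700018B24Rik, Fermt3 and Slc25a31, none of them X-linked. The likeness rests on 2 arrays only. Rec114, a meiotic recombination gene, had 435.4 on the KO array and 46.6 on the control array, at least 2.41 on the log2 scale. Slc25a31, an ADP/ATP carrier of germ cells, had 491.2 on the KO array and 55.4 on the control array, at least 2.59. AF067061 had at least 2.34, the integrin activator Fermt3 at least 1.93 and 1700018B24Rik 1.81.

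Several of the 10 ratios depended on how the signals were handled. Of 8 settings, Gm364, Efhc2, Pnma5 and Fmr1nb were at least 2-fold higher in each, with Fmr1nb between 1.43 and 1.89. Nxf2 was at most 0.57 and never reached 2-fold. When all probe sets of a gene were averaged, Tex13b had 0.84 and Tktl1 0.65, so neither was called. With the floor at the 75th percentile of each array, Nxf2, Tsx and Tktl1 were below it on both arrays, and Nxf3 had a bound of 0.64 and Scml2 of 0.39. Tex13b then had a KO signal barely past the floor and a bound of -0.0055. Without any floor, Efhc2, Nxf3 and Tex13b had log2 ratios of 5.70, 5.19 and 5.21, which rest on control signals of 8.1, 8.9 and 5.6.

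**Figure D5:**
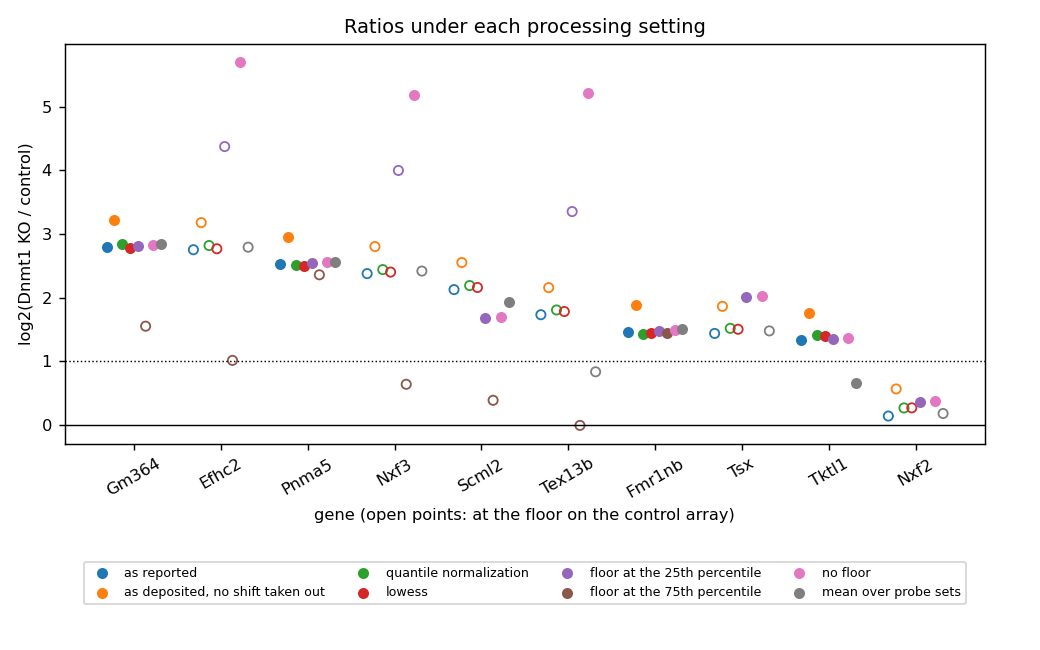
Log2 ratio of Dnmt1 KO over control (y axis) for each of the 10 genes (x axis) under 8 processing settings (colours), with open points at the floor on the control array. Gm364, Efhc2, Pnma5 and Fmr1nb stay above the dotted 2-fold line in all 8, Efhc2 only just with the 75th percentile floor. Nxf2 stays below the line.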

How the data were processed

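Total RNA was labelled by a one-cycle biotin protocol and hybridised to Affymetrix Mouse Genome 430 2.0 arrays, per the labels. The deposited signal intensity values were made with MAS5, per the submitters' processing notes, and no detection calls or scaling between arrays are given in the sources used here. Precision is limited by 1 array per group. Groups follow the sample titles, since the source name of both samples describes a control.

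From these values, 64 control probe sets were removed. Of the other 45037, 34945 had 1 gene in the platform annotation, and 34741 of those were updated through gene identifiers to RefSeq (GRCm38.p6), which also gave the gene order. Signals were floored at each array's 50th percentile, and log2 ratios were taken from each gene's brightest probe set. They are relative to the median over the 10995 genes past both floors. A gene was called at a ratio of at least 2-fold. The ratio step was tested on simulated data, with folds given only to genes well above the floor on the control array. That test did not cover genes at the floor, whose ratios are bounds.

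Alternatives were other scalings, floors, fold thresholds and the mean over probe sets. Named were the 10 genes, list genes at least 2-fold changed, up to 4 others per list by the size of the ratio, the 10 highest X-linked genes, the nearest measured neighbours and the 5 genes of most similar signal. Further list genes named in the text, such as Nxf1, Usp7, Tex13a, Pnma2, Zcchc12, Tktl2, Mageb16, Rlim, Thy1, Prm2 and those below both floors, were picked after their values were seen. The members and lists were chosen with earlier results of these data known. Python 3.11.15, pandas 2.3.3 and statsmodels 0.14.6 (lowess) were used.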

Additional observations from a re-analysis of the deposited data

How the results depend on the processing

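The count of testis-type genes at least 2-fold higher was 9 as reported, and 9 as deposited, with quantile normalization, lowess, a floor at the 25th percentile, no floor or a 1.5-fold threshold. It was 7 with the mean over probe sets, 6 at 3-fold and 4 with a floor at the 75th percentile. The share of all measured genes called higher, 1.09% as reported, was 4.92% as deposited, 1.25% with quantile normalization, 1.24% with lowess, 2.28% and 0.672% with the 25th and 75th percentile floors, 5.11% with no floor, 0.851% with the mean over probe sets, 4.74% at 1.5-fold and 0.262% at 3-fold. The median log2 ratio of the testis-type genes, 1.93, became 2.35 as deposited, 2.28 with the 25th percentile floor, 2.29 with no floor and 1.02 over the 7 genes left with the 75th percentile floor. With that last floor the Tex13b ratio turned to -0.0055, since its KO signal barely passed the floor. The number of genes called higher over the 7 lists, 1 as reported, was 5 as deposited and at 1.5-fold, 3 with quantile normalization and with lowess, 9 with the 25th percentile floor, 16 with no floor and 0 at 3-fold. These lists held 120 genes with a probe set, of which 78 were measured as reported. The number of other X-linked genes called, 10 as reported, was 30 as deposited and at 1.5-fold, 22 with the 25th percentile floor, 48 with no floor, and 3 with the 75th percentile floor and at 3-fold, while the share of all genes called moved in the same direction. No paired analysis was possible because each group has 1 array and the result comes from no test. Without detection calls, low control signals cannot be told from background.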

Other observations

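Promoter windows of the other genes called higher were set beside those of the testis-type genes. The 130 windows of those 103 genes had a median of 15 CpG dinucleotides (quartiles 7 and 24). The median was 11.5 in the 10 windows of the testis-type genes (quartiles 5.25 and 13) and 20 over all measured genes. The 2 quartile ranges overlap. The 10 windows include those of Nxf2, with 17 and 20 CpG, although Nxf2 was not called higher. The motifs were picked after the windows of the testis-type genes had been read. The sequence CTCGCGAG, present in 2 of those 10 windows, was in 0 of these 130 and in 1.81% of the windows of all measured genes. The E-box CACGTG was in 12.3% of the 130, against 9.91% of the windows of all measured genes. The differences were not tested.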
